A study of Mus musculus with 32 samples.

Results

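The circadian clock genes are 10 genes of the molecular timekeeper that runs in nearly every cell: Arntl, Clock, Npas2, Per1, Per2, Per3, Cry1, Cry2, Nr1d1 and Dbp. They were taken by gene symbol from the deposited tables of read counts from mouse liver, and all 10 were among the 41585 gene entries. Arntl (also called BMAL1) pairs with Clock or its relative Npas2, and the pair binds DNA sites called E-boxes and switches on Per, Cry, Nr1d1 and Dbp. The Per and Cry proteins return to block the pair that made them, Nr1d1 (REV-ERB alpha) represses Arntl through sites called ROREs, and Dbp carries the rhythm to D-box sites in output genes. In liver, Arntl messenger RNA and that of Dbp and the Per genes therefore peak at opposite times of day, and the loop is coupled to feeding, glucocorticoids and lipid metabolism.

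The livers came from C57Bl/6J (B6) mice of both sexes, either wild type (WT) or lacking Cyp2b9, Cyp2b10 and Cyp2b13 (Cyp2b-null). The deletion was made with CRISPR/Cas9 on the B6 background, and the WT mice were bought from a vendor rather than bred as littermates. Mice were 10 weeks old when they went onto normal chow (ND), with fat at 6.2%, or onto CDAHFD, a choline-deficient diet of defined amino acids with fat at 62% and methionine at 0.1% that is used to produce steatohepatitis, and they were fed for 8 weeks. Each of the 8 groups of genotype, diet and sex had 4 libraries, 32 in all. The time of day at which livers were collected is not given in the sources used here, and neither is the order of collection. P-values measure the spread between these libraries, each from a liver of the group.

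Motifs of the loop were searched in the 300 bases from 250 before to 50 after the RefSeq start sites (GRCm38.p6), on both strands, for the 9 members with an entry (not Per2). The hits are matches of letters only, and binding or function at them was not tested. The E-box CACGTG was in 2 of the 9, Cry1 and Per1, and in 7.15% of 32851 promoters of the same length. Members are counted by gene, with a hit in any of its promoters, while the percentages are of single promoters. Some members had more than 1 promoter, so these figures are not counted alike. The D-box TTANGTAA was in 1 of the 9, Per3, which held it at 2 places, and in 2.32% of promoters. The RORE core, searched as TAGGTCA or TGGGTCA, was in 1 of the 9, Arntl, and in 6.45% of promoters, and the cyclic AMP response element TGACGTCA was in 0 of the 9 and in 1.79%. The Arntl stretch, chr7:113207531-113207557 on the plus strand, lies inside the span of Arntl and overlaps a GENCODE exon of it. The Per1 stretch, chr11:69098755-69098816 on the plus strand, lies inside the span of Per1 and overlaps no GENCODE exon of it. The Cry1 stretch, chr10:85185081-85185142, and the Per3 stretch, chr4:151044788-151044898, are both on the minus strand and upstream of their genes. Each is printed 5′ to 3′ with the motif in capitals.
Arntl RORE core: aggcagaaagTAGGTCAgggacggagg
Cry1 E-box: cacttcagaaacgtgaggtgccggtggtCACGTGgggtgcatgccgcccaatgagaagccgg
Per1 E-box: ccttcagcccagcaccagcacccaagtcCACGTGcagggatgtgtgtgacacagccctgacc
Per3 D-boxes: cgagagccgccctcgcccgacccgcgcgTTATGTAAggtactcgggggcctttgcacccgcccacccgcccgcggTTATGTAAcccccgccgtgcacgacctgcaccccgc

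Library totals ranged from 2906411 to 10166959 counts (median 5368808), so 3 counts corresponded to 0.25 to 1.15 counts per 1000000 (CPM). Cyp2b9, Cyp2b10 and Cyp2b13 summed to 3 to 11 counts in females of the Cyp2b-null line against 1251 or more in WT females, and to 2 to 27 against 33 to 366 counts in males. Xist had at least 798 counts in each female library and at most 15 in each male one. Summed over marker lists, the 5 of 6 hepatocyte markers measured ran from 101409 to 183915 CPM in the 16 ND libraries and from 52434 to 112008 CPM in the 16 CDAHFD libraries. The macrophage list (5 of 5 markers) ran from 122 to 416 CPM on ND and from 491 to 1197 CPM on CDAHFD, the stellate cell list (6 of 6) from 86.0 to 275 and from 381 to 716, and the cholangiocyte list (5 of 5) from 20.7 to 61.6 and from 99.2 to 317. Endothelial markers (4 of 4) had 122 to 243 CPM on ND and 106 to 214 CPM on CDAHFD. The T cell (5 of 5) and B cell (3 of 3) lists stayed under 8 CPM in every library, and no marker of any list was at 0 in all libraries of a diet. The part of these cell types in the diet differences below was not tested, and in whole liver fewer cells of a type and less RNA per cell cannot be told apart.

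Levels between genes were compared per kilobase of exon. By the median over the 32 libraries, Dbp (33.7 CPM per kb) and Nr1d1 (32.9) were the most abundant members. They were followed by Cry2 (5.18), Per1 (3.81), Clock (2.92), Per2 (2.14) and Cry1 (1.67), with Per3 (0.606), Arntl (0.507) and Npas2 (0.134) lowest. Arntl had 1 to 116 reads in a library and Npas2 0 to 45, with at most 3 in 16 of 32 libraries, so single values of both carry a large counting error. Npas2 did not pass the filter on low counts in either sex, and 9 of the 10 members were tested.

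**Figure D1:**
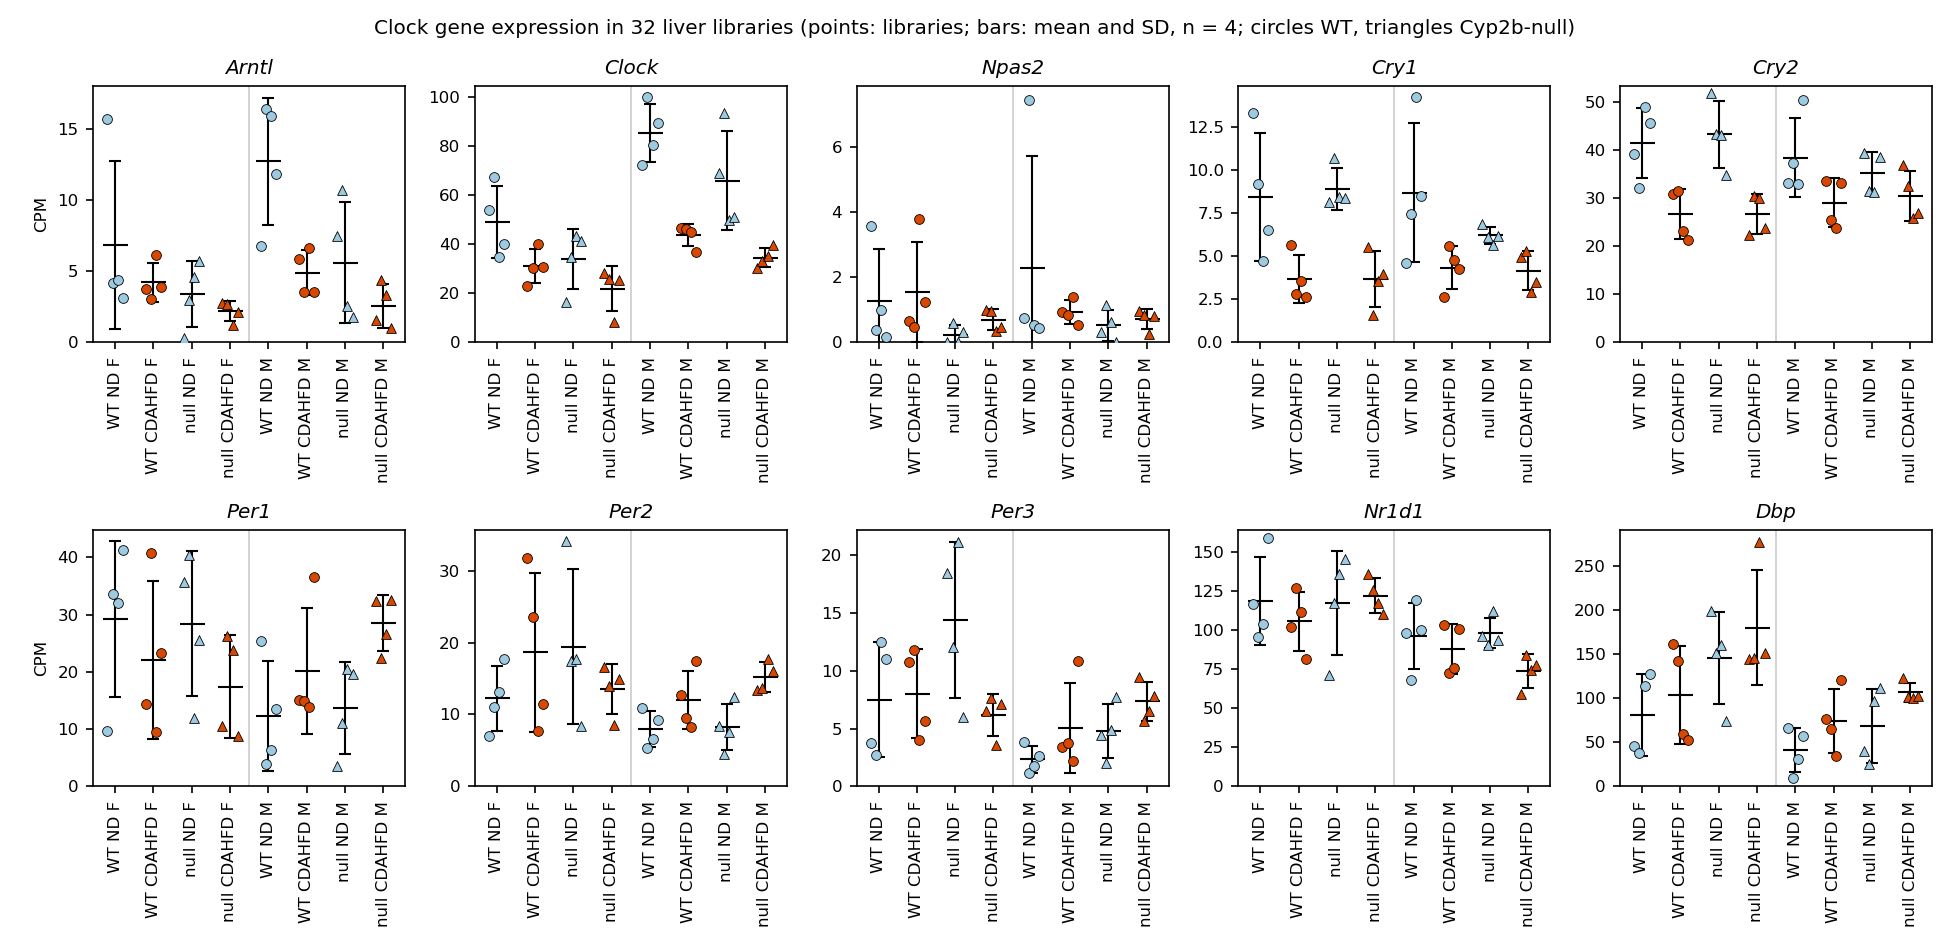
Expression of the 10 clock genes in each liver library, in CPM on a linear axis from 0 with its own scale for each gene, in the 8 groups (F females, M males). Points are libraries, blue for ND and orange for CDAHFD, circles for WT and triangles for Cyp2b-null, and black bars give the mean and SD (n = 4). Clock in males is lower in every CDAHFD library (at most 46.8 CPM in WT and 39.8 in Cyp2b-null) than in every ND library (at least 49.9 CPM), while Dbp in ND-fed WT males spreads from 10.1 to 66.2 CPM.

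Diet was compared within each genotype and sex, which asks whether clock transcripts of the liver differed after 8 weeks of CDAHFD. The time of collection is not given. A change of level, a shift in timing and a difference in collection time therefore cannot be told apart. The same holds for the comparisons of genotype and sex below. In females the cryptochromes Cry1 and Cry2 fell in both genotypes, and no other member passed the test. In males Clock fell in both genotypes, Arntl and Cry1 fell in WT, and in Cyp2b-null males Per2 rose and Nr1d1 fell. The Nr1d1 call was lost in 7 of 9 other settings. The edgeR quasi-likelihood test with Benjamini-Hochberg adjustment over all genes called 2 of 9 members in WT females, where 24.1% of all 13226 genes were called. It called 2 of 9 in Cyp2b-null females (30.8% of all genes), 3 of 9 in WT males (33.0%) and 3 of 9 in Cyp2b-null males (37.4%), so the members were called about as often as genes in general. The median log2 fold change of the 9 members was −0.38 in WT females, −0.65 in Cyp2b-null females, −0.13 in WT males and −0.21 in Cyp2b-null males, while that of all genes lay between −0.02 and 0.03. Tested for a difference between any of the 4 groups, edgeR called Cry2, Clock and Cry1 in females (31.7% of all genes) and Clock, Arntl, Cry1, Per2 and Per3 in males (39.7%).

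Clock (chr5:76209868-76305603, minus strand) encodes the partner of Arntl in the activating pair. Its level was 72.6, 100.1, 80.4 and 89.5 CPM in ND-fed WT males and 46.8, 46.4, 45.1 and 37.1 CPM in CDAHFD-fed WT males. In Cyp2b-null males it was 69.4, 93.6, 49.9 and 51.4 CPM on ND and 30.3, 33.2, 35.3 and 39.8 CPM on CDAHFD. The diet groups did not overlap in either genotype. The fall was 0.96 on the log2 scale in WT males (log2 fold change −0.96, SE 0.167, edgeR adjusted p = 0.000134) and nearly the same in Cyp2b-null males (−0.93, SE 0.168, edgeR adjusted p = 0.000164), and both calls held without any single library. Female levels were 54.3, 67.7, 34.7 and 40.2 CPM in ND-fed WT and 23.2, 30.5, 40.1 and 30.6 CPM in CDAHFD-fed WT. ND-fed Cyp2b-null females had 16.3, 34.9, 43.4 and 41.5 CPM and CDAHFD-fed ones 28.2, 25.9, 8.39 and 25.3 CPM. Here the diet groups overlapped, and the log2 fold changes of −0.63 (95% interval −1.26 to 0.01) and −0.61 (−1.26 to 0.04) did not pass the test. The WT female estimate passed when only the groups compared were fitted (−0.62, edgeR adjusted p = 0.0431).

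Arntl (chr7:113178471-113314126, plus strand), the partner without which the loop stops, had 6.804, 16.4, 15.9 and 11.8 CPM in ND-fed WT males and 5.88, 3.54, 6.66 and 3.55 CPM in CDAHFD-fed WT males. The groups did not overlap, though their closest libraries were 6.804 and 6.66 CPM. The log2 fold change was −1.35 (SE 0.426, edgeR adjusted p = 0.0182). Leaving out ND-fed WT male replicate 2 or 3, or CDAHFD-fed WT male replicate 2 or 4, put the adjusted p between 0.0501 and 0.0548, and scaling by library size alone gave 0.0881. In Cyp2b-null males Arntl had 7.45, 10.7, 2.53 and 1.77 CPM on ND and 1.61, 4.37, 3.33 and 1.03 CPM on CDAHFD, overlapping, with a log2 fold change of −1.03 (95% interval −1.99 to −0.06, edgeR adjusted p = 0.0891). In WT females it had 15.7, 4.21, 4.38 and 3.102 CPM on ND and 3.72, 3.07, 6.18 and 3.91 CPM on CDAHFD. In Cyp2b-null females it had 0.302, 2.98, 4.61 and 5.69 CPM and 2.77, 2.697, 1.25 and 2.17 CPM. Neither female difference passed the test, and the ND-fed WT female mean of 6.85 CPM rested on a single library at 15.7 CPM.

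Npas2 (chr1:39193702-39363240, plus strand), which can stand in for Clock, was close to the limit of these libraries. In ND-fed WT males it had 0.736, 7.45, 0.549 and 0.437 CPM, with 1 library far above the other 3, and in ND-fed Cyp2b-null males 0.333, 1.14, 0.632 and 0 CPM. Among females it reached 3.58 CPM in ND-fed WT and 3.79 CPM in CDAHFD-fed WT, and at most 1.01 CPM in either Cyp2b-null group. When it was added to the filtered genes, a choice made after the counts were seen, no comparison called it, and its diet log2 fold changes ran from −1.26 in WT males (SE 0.748) to 1.16 in Cyp2b-null females (SE 1.06). Its log2 fold changes of Cyp2b-null over WT were −2.15 (SE 0.985, edgeR adjusted p = 0.840) and −1.20 (SE 0.744) on ND and CDAHFD in females, and −2.19 (SE 0.852, edgeR adjusted p = 0.466) and −0.51 (SE 0.844) in males. The ND estimates had unadjusted edgeR p of 0.0406 in females and 0.0181 in males.

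Cry1 (chr10:85131700-85185054, minus strand) encodes a repressor of the activating pair that acts late in the cycle. Its level was 13.3, 9.18, 4.71 and 6.55 CPM in ND-fed WT females and 5.69, 2.83, 3.59 and 2.66 CPM in CDAHFD-fed WT females, with 1 library of each diet in the range of the other. In Cyp2b-null females it was 8.17, 10.7, 8.45 and 8.37 CPM on ND and 5.53, 1.59, 3.57 and 3.98 CPM on CDAHFD, without overlap. The fall was larger than that of Cry2, the other called member in females, with a log2 fold change of −1.20 in WT females (SE 0.342, edgeR adjusted p = 0.0132) and −1.30 in Cyp2b-null females (SE 0.334, edgeR adjusted p = 0.00574). In WT males it had 4.597, 7.45, 14.3 and 8.53 CPM on ND and 2.65, 5.62, 4.79 and 4.26 CPM on CDAHFD. The log2 fold change there was −1.01 (SE 0.304, edgeR adjusted p = 0.0133), which went to −0.65 (adjusted p = 0.102) without ND-fed WT male replicate 3. Scaling by library size alone, which put the median of all genes at 0.37 in WT males and 0.36 in Cyp2b-null males, gave −0.61 (adjusted p = 0.125), and the call was also lost under the study's 2-step rule (−0.89). In Cyp2b-null males Cry1 had 6.89, 6.15, 5.69 and 6.203 CPM and 4.99, 5.31, 2.92 and 3.49 CPM, which did not overlap, yet the log2 fold change of −0.59 did not pass the test (edgeR adjusted p = 0.144).

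Cry2 (chr2:92403646-92434085, minus strand), the second cryptochrome repressor, had 39.2, 32.1, 48.8 and 45.5 CPM in ND-fed WT females and 30.9, 31.4, 23.1 and 21.2 CPM in CDAHFD-fed WT females. Cyp2b-null females had 51.7, 43.2, 43.01 and 34.8 CPM on ND and 22.4, 30.5, 29.98 and 23.8 CPM on CDAHFD. The diet groups did not overlap in either genotype, and the log2 fold changes were −0.62 (SE 0.171, edgeR adjusted p = 0.0107) in WT and −0.66 (SE 0.170, edgeR adjusted p = 0.00558) in Cyp2b-null females. Without CDAHFD-fed WT female replicate 4 neither Cry1 (adjusted p = 0.0534) nor Cry2 (0.0501) passed in WT females, and Cry1 was also lost without ND-fed WT female replicate 1 (0.0966). Scaling by library size alone, which put the median of all genes at 0.32 in WT and 0.28 in Cyp2b-null females, gave Cry2 log2 fold changes of −0.30 and −0.41 that did not pass. Males had 32.9 to 50.3 CPM in ND-fed WT, 23.8 to 33.6 in CDAHFD-fed WT, 31.2 to 39.4 in ND-fed Cyp2b-null and 25.7 to 36.9 in CDAHFD-fed Cyp2b-null livers. Their log2 fold changes of −0.40 and −0.21 did not pass the test, and the edgeR test of the sex difference of the diet effect on Cry2 gave 0.24 (95% interval −0.25 to 0.74) in WT and 0.48 (−0.01 to 0.97) in Cyp2b-null mice.

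The Per genes encode the repressors that partner the cryptochromes, and Per1 and Per2 are also induced directly by feeding and by glucocorticoids. Per2 (chr1:91415977-91459351, minus strand) had 8.45, 4.56, 7.59 and 12.4 CPM in ND-fed Cyp2b-null males and 13.4, 13.6, 17.7 and 15.99 CPM in CDAHFD-fed ones, with every CDAHFD library above every ND library. Its log2 fold change of 0.88 (SE 0.270, edgeR adjusted p = 0.0134) was the single called rise among the members. The adjusted p was 0.0538 without ND-fed Cyp2b-null male replicate 2 and 0.0599 when all 8 groups shared 1 fit. WT males had 10.8, 5.29, 6.59 and 9.19 CPM on ND and 12.7, 9.58, 8.301 and 17.4 CPM on CDAHFD, overlapping, with a log2 fold change of 0.60 that did not pass, while scaling by library size alone gave 0.99 (edgeR adjusted p = 0.0106). In females Per2 ran from 6.96 to 17.8 CPM in ND-fed WT, 7.77 to 31.7 in CDAHFD-fed WT, 8.37 to 34.2 in ND-fed Cyp2b-null and 8.57 to 16.6 in CDAHFD-fed Cyp2b-null livers.

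Per1 (chr11:69095108-69109965, plus strand) had 3.56, 11.2, 20.4 and 19.7 CPM in ND-fed Cyp2b-null males and 32.4, 22.5, 26.7 and 32.6 CPM in CDAHFD-fed ones. These groups did not overlap, and the log2 fold change was 1.10 (95% interval 0.14 to 2.07, edgeR adjusted p = 0.0678), short of the threshold. It passed with scaling by library size alone (1.46, adjusted p = 0.0159) and with only the groups compared in the fit (0.0155). WT males had 25.4, 3.97, 6.31 and 13.6 CPM on ND and 15.2, 14.99, 13.8 and 36.6 CPM on CDAHFD, overlapping (log2 fold change 0.73, 95% interval −0.25 to 1.72). In females the estimates had the other sign, −0.38 in WT and −0.70 in Cyp2b-null, and all 4 groups overlapped between 8.81 and 41.4 CPM.

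Per3 (chr4:150997018-151044707, minus strand) had 18.4, 12.1, 21.1 and 6.02 CPM in ND-fed Cyp2b-null females and 6.54, 7.61, 3.57 and 7.12 CPM in CDAHFD-fed ones, with 1 ND library inside the CDAHFD range. Its log2 fold change of −1.12 (SE 0.423) lay at the threshold, with an edgeR adjusted p of 0.0502. It passed in 5 of 9 other settings, with adjusted p from 5.25e-05 (no low-count filter) to 0.0490, and did not pass in 4. Of 16 fits without a single library, 10 did not pass, and the estimate over the 16 ran from −1.41 to −0.89. In WT females the log2 fold change was 0.08 (95% interval −0.84 to 1.0). Males had estimates of 1.10 in WT and 0.61 in Cyp2b-null livers, neither past the threshold, and with library size alone the WT male estimate was 1.51 (edgeR adjusted p = 0.0152).

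Nr1d1 (chr11:98767932-98775377, minus strand), the repressor of Arntl, varied less within groups than most other members (SD of log2 CPM 0.287). That SD was still at percentile 82.0 among genes of its level. In Cyp2b-null males it had 96.2, 90.7, 112 and 93.7 CPM on ND and 58.8, 84.02, 74.2 and 77.7 CPM on CDAHFD, without overlap. The fall was small, with a log2 fold change of −0.41 (SE 0.159, edgeR adjusted p = 0.0481), and it did not pass when any of 10 of the 16 male libraries was left out. Of 9 other settings it passed in 2 and was lost in 7, DESeq2 among them (−0.40, adjusted p = 0.0572). The edgeR test for a difference between any of the 4 male groups did not call Nr1d1 (adjusted p = 0.141). Scaling by library size alone brought the log2 fold change to −0.04. WT males had 98.4, 68.003, 119 and 99.95 CPM on ND and 103, 72.2, 75.8 and 100.5 CPM on CDAHFD, and female livers had 71.1 to 158.9 CPM over the 4 groups, with log2 fold changes of −0.15 (95% interval −0.56 to 0.25) in WT and 0.08 (−0.32 to 0.48) in Cyp2b-null females.

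Dbp (chr7:45705100-45710203, plus strand), the output regulator, was the most variable in absolute terms. It had 45.3, 37.5, 113 and 127 CPM in ND-fed WT females and 161, 142, 59.4 and 52.95 CPM in CDAHFD-fed WT females. In Cyp2b-null females it had 199, 151, 159.8 and 73.9 CPM on ND and 145, 145, 277 and 151 CPM on CDAHFD. WT males had 66.2, 10.1, 31.6 and 56.9 CPM on ND and 76.04, 65.2, 34.3 and 121 CPM on CDAHFD. Cyp2b-null males had 40.4, 25.97, 96.3 and 112 CPM and 123, 101, 101 and 102 CPM. The diet groups overlapped in all 4 comparisons, and the log2 fold changes from 0.33 to 0.86 did not pass the test. With library size alone the estimate in WT males was 1.24 (edgeR adjusted p = 0.0317).

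**Figure D2:**
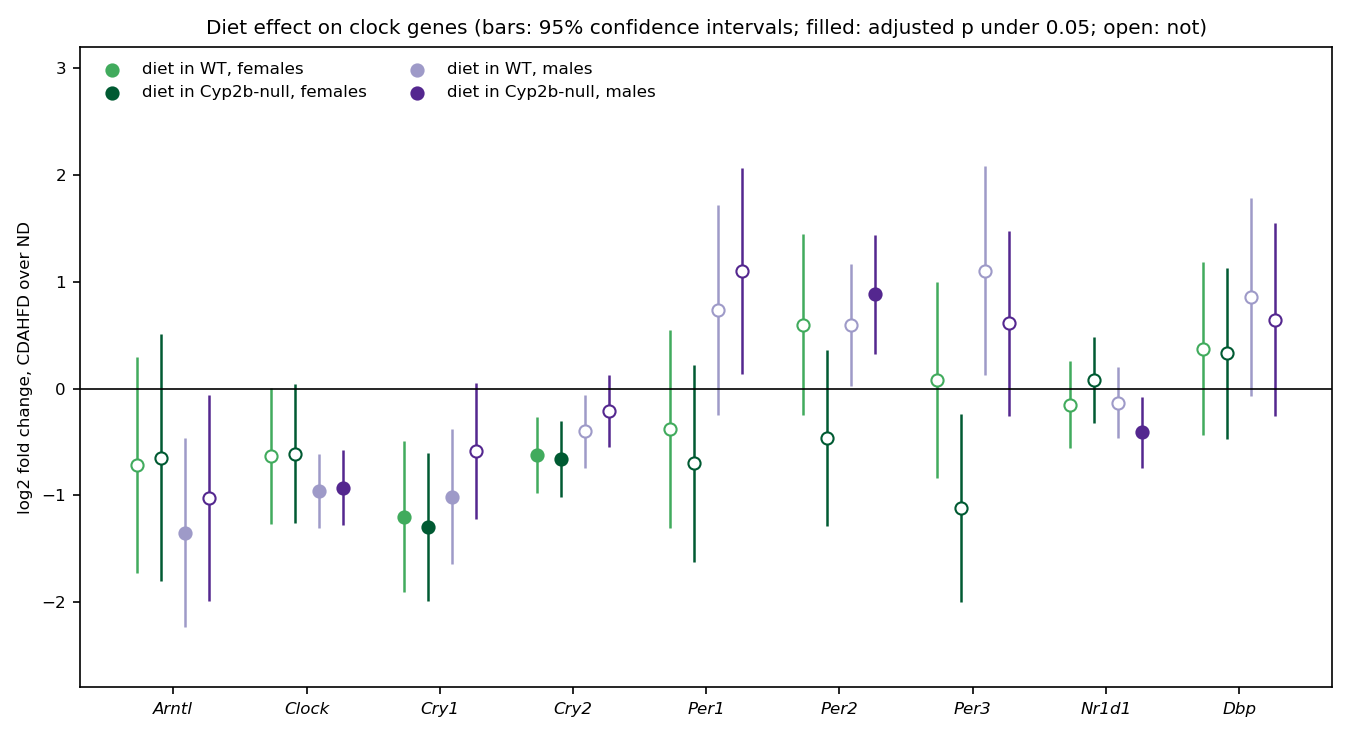
Log2 fold change of CDAHFD over ND for the 9 members tested, with 95% confidence intervals as bars, in WT and Cyp2b-null females (light and dark green) and males (light and dark purple). Filled points passed the edgeR test at an adjusted p under 0.05, and open points did not. The called values are all below 0 except Per2 in Cyp2b-null males (0.88).

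Counted by whether the 4 ND and 4 CDAHFD libraries overlapped, 1 member was separate in WT females (Cry2, 26.0% of all genes) and 2 in Cyp2b-null females (Cry1 and Cry2, 30.8%). In WT males 2 were separate (Clock and Arntl, 28.4%) and in Cyp2b-null males 5 (Clock, Cry1, Nr1d1, Per1 and Per2, 36.8%).

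Genotype was compared on each diet, to ask whether clock transcripts differed between Cyp2b-null and WT livers. The edgeR test called 0 of 9 members on ND in females (0.0756% of all genes were called) and in males (0.0371%), and 0 of 9 on CDAHFD in females (0.0227%) and in males (0.0297%). At an unadjusted p under 0.05 there were 1 member on ND in females, 3 on ND in males and 0 on CDAHFD in either sex. Of all genes, 760 of 13226 in females and 1112 of 13460 in males had such a p on ND. On CDAHFD 771 and 487 genes did. DESeq2 also called 0 members in each comparison. Of the 9, Arntl had the lowest estimates, with log2 fold changes of Cyp2b-null over WT of −1.0 and −0.94 in females on ND and CDAHFD and −1.16 and −0.84 in males. The 95% interval in ND-fed males, −2.05 to −0.28, lay below 0 before adjustment (edgeR adjusted p = 0.433). Dbp had estimates of 0.84 and 0.79 in females and 0.74 and 0.53 in males on ND and CDAHFD. Of the members, Arntl in CDAHFD-fed females was the 1 whose genotypes did not overlap, with 3.72, 3.07, 6.18 and 3.91 CPM in WT and 2.77, 2.697, 1.25 and 2.17 CPM in Cyp2b-null livers (2.83% of all genes did not overlap). No member was separate on ND in females (3.55%) or males (3.87%), or on CDAHFD in males (2.54%). The intervals were wide, from −2.06 to 0.05 for Arntl and from 0.02 to 1.65 for Dbp in ND-fed females, so the absence of calls does not show that the genotypes were alike.

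The difference of the diet effect between genotypes was called by edgeR for 0 members in females (0% of all genes) and in males (0.00743%). At an unadjusted p under 0.05 there were 0 members in either sex, against 830 of 13226 genes in females and 817 of 13460 in males. DESeq2 also called 0 members, but gave an adjusted p for 4 of the members in males. The widest estimates were −1.20 for Per3 (95% interval −2.47 to 0.08) and −1.06 for Per2 (−2.24 to 0.12), both in females.

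Between the sexes, ND-fed WT males had higher Clock than ND-fed WT females, with 72.6 to 100.1 CPM against 34.7 to 67.7 CPM and no overlap (log2 fold change 0.81, SE 0.254, edgeR adjusted p = 0.0248). Per3 was lower in the males, with 3.86, 1.16, 1.78 and 2.62 CPM against 3.78, 2.68, 12.5 and 11.03 CPM in females, which overlapped (log2 fold change −1.71, SE 0.520, edgeR adjusted p = 0.0204). These were 2 of 9 members, and 17.8% of all genes were called. Each call was lost when any of 4 of the 8 ND-fed WT libraries was left out. In CDAHFD-fed WT mice 0 members were called by edgeR (11.0% of all genes) or DESeq2. At an unadjusted p under 0.05 there were 0 members, against 3665 of 14020 genes. For the sex difference of the diet effect edgeR called 0 members in WT mice (0.970% of all genes) and 0 in Cyp2b-null mice (3.40%), as did DESeq2. At an unadjusted p under 0.05 there were 0 and 3 members, against 1439 and 2690 of 14020 genes. In Cyp2b-null mice those 3 members, the Per genes, had the widest differences of male over female diet effect. These were 1.83 for Per1, 1.37 for Per2 and 1.76 for Per3, with edgeR adjusted p from 0.115 to 0.143.

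Within groups, libraries of the same genotype, diet and sex differed more in several clock genes than in most genes. The pooled SD of log2 CPM around the group means was 0.860 for Arntl, 0.860 for Per1, 0.801 for Dbp and 0.731 for Per3, against a median of 0.313 over 14020 genes. Among genes within 0.5 log2 CPM of the same mean level, these SDs were at percentiles 98.9, 99.6, 99.3 and 98.0. Per2 (0.583, percentile 97.6) and Clock (0.452, percentile 97.4) also lay high among genes of their level. Cry1 (0.478, percentile 78.7), Nr1d1 (0.287, percentile 82.0) and Cry2 (0.247, percentile 61.7) lay closer to other genes. In ND-fed WT males Dbp differed 6.56-fold and Per1 6.39-fold between the highest and the lowest library, and in CDAHFD-fed Cyp2b-null males 1.22-fold and 1.45-fold. These were the widest and the narrowest of the 8 groups for both genes. The other groups ran from 1.92-fold to 4.31-fold for Dbp and from 2.65-fold to 5.75-fold for Per1. CDAHFD-fed WT females, for 1, had 3.05-fold and 4.27-fold.

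**Figure D3:**
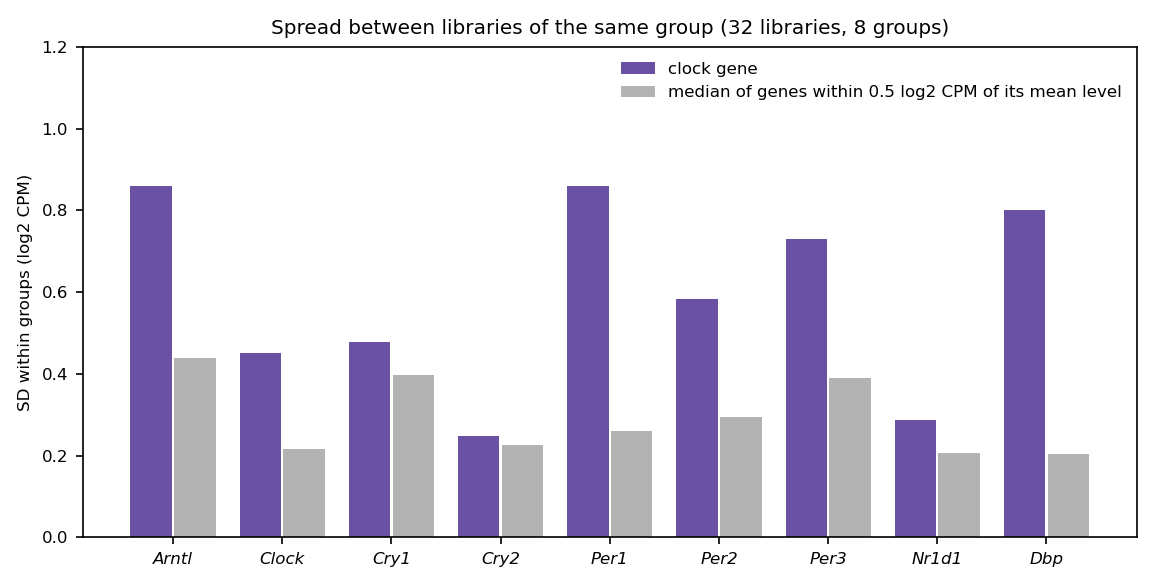
SD of log2 CPM within groups, pooled over 32 libraries in 8 groups, for the 9 members tested (purple) beside the median SD of genes within 0.5 log2 CPM of the same mean level (grey). Arntl, Per1, Dbp and Per3 stand at 0.731 or more, and Cry2 (0.247) is close to genes of its level.

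Deviations of the members were related to each other. After the group mean of log2 CPM was removed, Arntl was compared with each of the other 9 members over the 32 libraries, with permutation within groups (two-sided, 100000 resamples) and adjustment over the 9 relations. Arntl rose and fell with its partner Clock (Pearson r = 0.656, Spearman rho = 0.618, adjusted permutation p of r 0.00256 and of rho 0.00363) and with Npas2 (r = 0.510, rho = 0.481, adjusted permutation p 0.00967 and 0.0196). It ran against Per1 (r = −0.640, rho = −0.701, adjusted permutation p 0.00108 and 0.00018) and against Dbp (r = −0.626, rho = −0.690, adjusted permutation p 0.00202 and 0.00045). Dbp lay on the other side of its group mean from Arntl in 25 of 32 libraries, Per1 in 28, Per3 in 23 and Per2 in 18. Per2 (r = −0.625, rho = −0.532, adjusted permutation p 0.00252 and 0.00918) and Per3 (r = −0.531, rho = −0.557, adjusted permutation p 0.00985 and 0.00691) also ran against it. Cry1 (r = 0.250, rho = 0.256), Cry2 (r = −0.294, rho = −0.292) and Nr1d1 (r = 0.303, rho = 0.180) had adjusted permutation p of r of 0.147, 0.147 and 0.215.

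Leaving out the libraries farthest in Arntl, ND-fed Cyp2b-null female replicate 1 and ND-fed WT female replicate 1, gave r of 0.575 for Clock, 0.438 for Npas2, −0.637 for Per1, −0.512 for Per2, −0.517 for Per3 and −0.649 for Dbp. Within the 16 females r was 0.697 for Clock, −0.609 for Per1, −0.641 for Per2, −0.383 for Per3 and −0.569 for Dbp. Within the 16 males it was 0.645, −0.682, −0.613, −0.733 and −0.702 in the same order. Within a sex the adjusted permutation p no longer passed for Per3 (0.267) and Dbp (0.0626) in females or for Clock (0.114), Npas2 (0.318) and Per2 (0.0532) in males. Values of a library share its depth and scaling factor. The clock genes that ran against Arntl ran together, with r of 0.81 between Per2 and Per3, 0.80 between Per3 and Dbp and 0.71 between Per2 and Dbp, given as descriptions. The part of the time of collection, which is not given, was not tested.

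**Figure D4:**
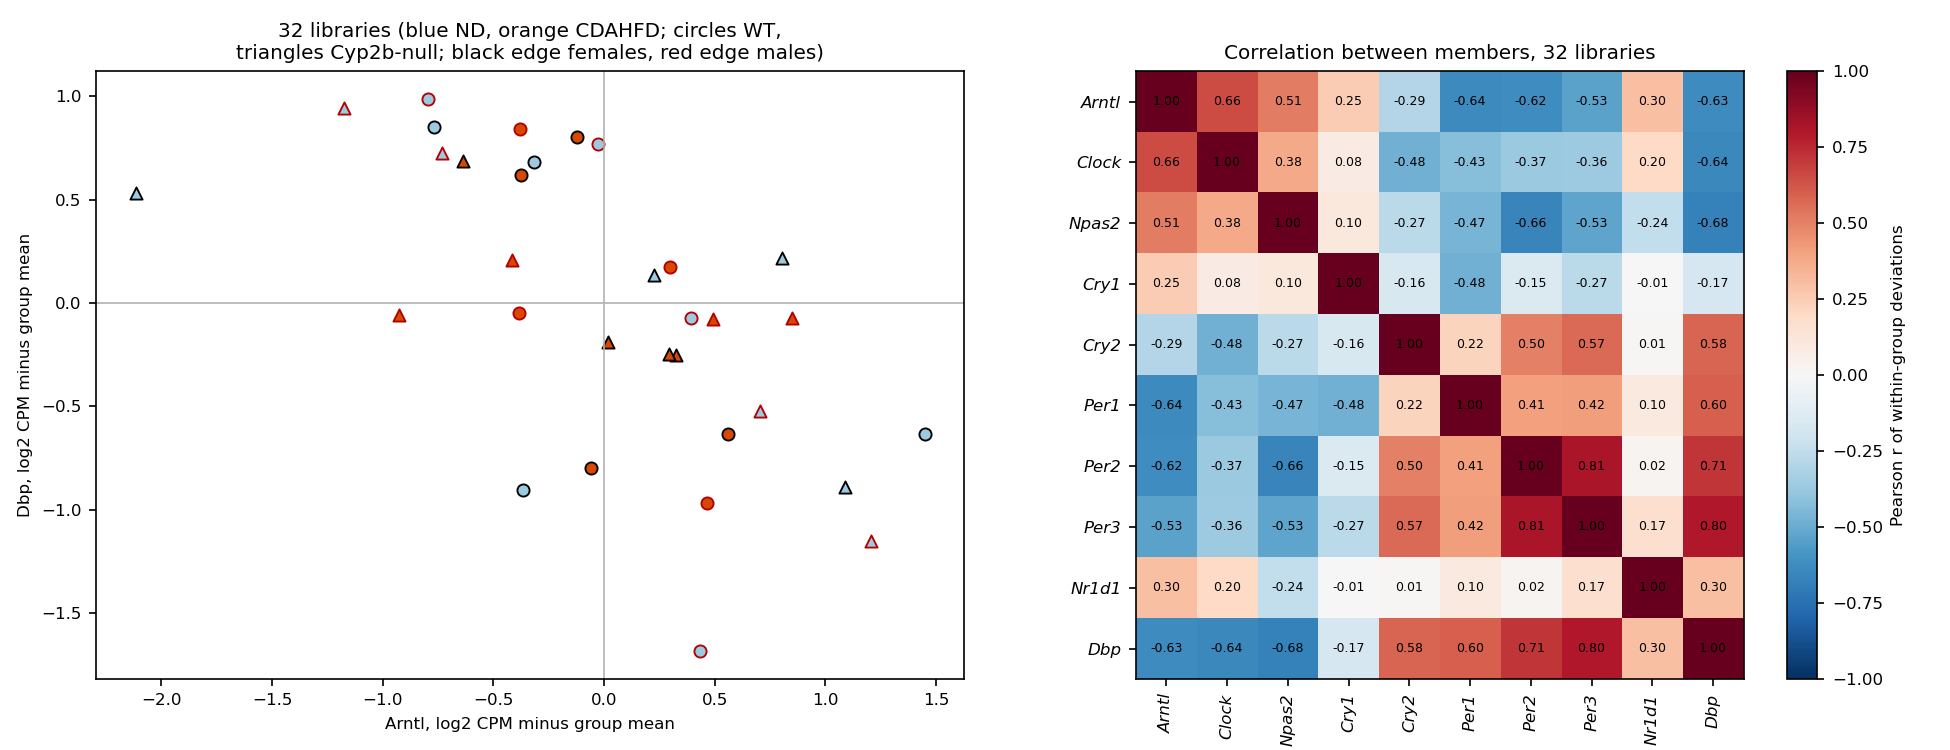
Left, log2 CPM minus group mean for Arntl (x axis) and Dbp (y axis) in 32 libraries, blue for ND, orange for CDAHFD, circles for WT, triangles for Cyp2b-null, black edges for females and red for males. Right, Pearson r of the same deviations between all pairs of the 10 members, from blue (−1) to red (1). Libraries high in Arntl tend to be low in Dbp (r = −0.626), and Per2, Per3 and Dbp form a block with r of 0.71 to 0.81.

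Among 13775 genes whose mean was 1 CPM or more, those whose within-group deviations were most like those of Arntl over the 32 libraries were Chka (r = 0.866), a choline kinase, Tjp3 (0.818), Net1 (0.796), Eps8l2 (0.791) and Lrfn3 (0.777). The 5 most like Dbp were Tef (0.863), a D-box binding relative of Dbp, Ugp2 (0.809), Stbd1 (0.780), Ndufa9 (0.776) and Stard5 (0.750). They were picked for this likeness, and no test applies.

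Other parts of the clock, 19 genes listed beside the members, were all tested. The edgeR test called 1 rise and 2 falls with diet in WT females, 2 and 5 in Cyp2b-null females, 4 and 3 in WT males and 4 and 4 in Cyp2b-null males. Over all genes, 24.1%, 30.8%, 33.0% and 37.4% were called in these comparisons, in the same order. Bhlhe41 (DEC2), a repressor that competes for E-boxes, rose in all 4, by log2 fold changes of 3.09 and 2.68 in WT and Cyp2b-null females and 1.96 and 1.33 in males. Nfil3 (E4BP4), which opposes Dbp at D-boxes, fell in all 4, with log2 fold changes of −0.85, −0.78, −1.41 and −1.43 in the same order. Rora, the activator at ROREs, had −0.47, −0.88, −0.51 and −0.72, and passed in all but WT females. Hlf, a relative of Dbp, had −0.58, −0.86, −0.31 and −0.50, and passed in all but WT males.

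Of 22 clock output genes of liver, 3 rose and 7 fell in WT females, 1 and 7 in Cyp2b-null females (21 tested in females), 3 and 4 in WT males and 3 and 3 in Cyp2b-null males. The shares of all genes called were 24.1%, 30.8%, 33.0% and 37.4% in the same order. Cdkn1a (p21), a cell cycle inhibitor, rose in all 4, with log2 fold changes of 2.50 and 4.18 in WT and Cyp2b-null females and 3.32 and 3.57 in males. Avpr1a, a vasopressin receptor, fell in all 4 (−0.67, −1.20, −1.44 and −0.69). Elovl3, a fatty acid elongase, had −1.71, −0.50, −4.94 and −5.59 and passed in all but Cyp2b-null females, as did Slc45a3 (−1.02, −0.63, −0.68 and −0.89).

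Genes that respond to glucocorticoids, feeding or temperature were counted beside the clock genes. Of 12 glucocorticoid-induced genes, 2 rose and 3 fell in WT females and 1 and 6 in Cyp2b-null females, while 6 rose and 3 fell in WT males and 6 and 0 in Cyp2b-null males. The shares of all genes called were 24.1%, 30.8%, 33.0% and 37.4% in the same order. Fkbp5, a sensitive glucocorticoid target, had log2 fold changes of −0.41 and −1.26 in WT and Cyp2b-null females and 0.81 and 0.92 in males, and passed in all but WT females. Lcn2, which is also an acute phase gene, rose by 6.99 to 7.47 in the 4 comparisons. Mt2 (2.09, 1.14, 4.22 and 3.02) passed in all but Cyp2b-null females, and Tat (−2.01, −1.55, −0.76 and −0.22) in all but Cyp2b-null males. In Cyp2b-null mice the diet effect on 3 of the 12 was higher in males than in females past the threshold, where 3.40% of all genes were called. In the same test the diet effect was higher for 2 and lower for 1 of the 22 clock output genes. In ND-fed WT mice 6 of the 12 glucocorticoid-induced genes were lower in males than in females, where 17.8% of all genes were called.

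Of 13 feeding and fasting genes tested (14 listed), 2 rose and 4 fell in WT females, 1 and 5 in Cyp2b-null females, 4 and 3 in WT males and 3 and 4 in Cyp2b-null males. G6pc, which releases glucose, had log2 fold changes of −2.30 and −2.03 in WT and Cyp2b-null females and −1.13 and −1.97 in males, and Srebf1, the lipogenic regulator, −0.82, −0.95, −1.07 and −1.0, all past the threshold. Igfbp2, a binding protein of insulin-like growth factors, rose in all but WT females (0.20, 0.58, 0.84 and 1.46). Of 7 temperature-driven genes tested (9 listed), 0 rose and 3 fell in WT females, 0 and 2 in Cyp2b-null females, 0 and 3 in WT males and 1 and 1 in Cyp2b-null males. Beside both lists, the shares of all genes called were 24.1%, 30.8%, 33.0% and 37.4% in the same order. The heat shock genes Hsph1 (−1.08, −1.26, −1.05 and −0.41) and Hsp90aa1 (−0.27, −0.61, −0.53 and −0.42) each passed in 3 of the 4, Hspa5 (−0.72, −0.60, −1.20 and −0.57) in WT mice and Dnajb1 (−0.71, −0.42, −0.21 and −0.23) in WT females. The part of these signals in the differences of the members was not tested.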

How the data were processed

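Liver RNA-seq of 32 libraries was used. The deposited values are raw read counts per gene, in a table for each sex. The authors used Trimmomatic for trimming, GSNAP for alignment to GRCm38.p6 and Subread for the counts of each gene; versions, strand setting and the handling of reads that map more than once are not given in the sources used here. Groups were taken from the titles of the libraries. No libraries were identical within counting noise.

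Counts were filtered with filterByExpr (minimum count 10, minimum total 15), scaled with TMM factors and tested with the edgeR 4.0.16 quasi-likelihood test in R 4.3.3, in a fit of the 4 groups of each sex, or of all 8 groups for sex differences. Adjustment was by Benjamini-Hochberg across every gene of a fit, and an adjusted p under 0.05 was called. SE and 95% intervals came from the F statistic. CPM levels used the TMM factors of the 32 libraries. Within-group deviations used log2 CPM with a prior count of 2. The floor of 3 counts covers counting error only. The tests were tested on simulated data. Positions and promoters are RefSeq's for GRCm38.p6, and exon lengths are from GENCODE vM21.

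The members and the gene lists were chosen with earlier results of these data known. Genes were named by rule: the members, up to 4 genes of each list called in most diet comparisons with the largest mean change, the 5 genes most like Arntl and Dbp, and the checks of genotype and sex. A gene that the rule names is not reported here. Same-numbered libraries were not clearly more alike than others. Of 24 same-numbered pairs of a sex, 2 in females and 3 in males had deviations correlated above 0.1. Of 72 differently numbered pairs, 4 in females and 10 in males did. These counts do not decide whether replicate numbers pair libraries. Alternatives were RLE factors, scaling by library size alone, a fit with no low-count filter, a replicate block, all 8 groups in 1 fit, only the groups compared, DESeq2 1.42.0, the study's 2-step rule, leaving out the 2 libraries absent from the study's heat maps, and leaving out each library.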

Additional observations from a re-analysis of the deposited data

Results flagged for a closer look

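Of 80 groups of 4 values (10 genes in 8 groups), 7 held a library far from the other 3 by Dixon's criterion, which chance gives in about 1 of 20 groups. Arntl was 15.7 CPM in ND-fed WT female replicate 1, with the others between 3.10 and 4.38. Clock was 8.39 CPM in CDAHFD-fed Cyp2b-null female replicate 3, with the others between 25.3 and 28.2, and Dbp was 277 CPM in the same library, with the others between 145 and 151. This library is 1 of the 2 that the study's heat maps leave out. Npas2 was 7.45 CPM in ND-fed WT male replicate 2, with the others at 0.736 or less. Per1 was 36.6 CPM in CDAHFD-fed WT male replicate 4, with the others between 13.8 and 15.2. Cry1 was 10.7 CPM in ND-fed Cyp2b-null female replicate 2, with the others between 8.17 and 8.45, and Dbp was 123 CPM in CDAHFD-fed Cyp2b-null male replicate 1, with the others between 100.8 and 102.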

How the results depend on the processing

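Counts of members called moved by more than 1.5 times, or to or from 0, in these settings. Without the low-count filter, where 10 members were tested rather than 9, the counts were 5 for diet in Cyp2b-null females, 6 for diet in males of either genotype, 1 for genotype in females on either diet, 2 for genotype on ND in males, 9 and 8 for any difference in females and males, 1 and 3 for the sex difference of the diet effect in WT and Cyp2b-null mice, and 5 and 2 for sex on ND and CDAHFD. The shares of all genes called there were 16.7% for diet in Cyp2b-null females, 18.2% and 20.4% for diet in WT and Cyp2b-null males, 0.479% and 0.271% for genotype in females on ND and CDAHFD, 0.66% for genotype on ND in males, 19.5% and 23.6% for any difference, 1.7% and 3.34% for the sex difference of the diet effect, and 8.7% and 5.92% for sex. In that fit the estimated denominator degrees of freedom were at least 305880, against a median of 20.8 in the females' filtered fit. The estimate of the spread thus came out as almost wholly shared over all genes, and the members' own spread hardly entered. Library size alone gave 0 for diet in WT females (33.3% of all genes), 1 in Cyp2b-null females (35.4%) and 1 for sex on ND (16.8%). For diet in WT males it called 4 members (42.3%), with Per2, Per3 and Dbp gained and Arntl and Cry1 lost, and in Cyp2b-null males Per1 was gained and Nr1d1 lost. With all 8 groups in 1 fit the count was 1 for diet in Cyp2b-null males (36.9%) and 3 for any difference in males (39.9%), and the study's 2-step rule gave 1 for genotype on CDAHFD in males (Clock, 2.27%). Without single libraries the counts ran from 0 to 2 for diet in WT females, 2 to 3 in Cyp2b-null females, 2 to 5 in WT males, 1 to 4 in Cyp2b-null males, 2 to 5 and 3 to 7 for any difference in females and males, and 0 to 4 for sex on ND, and stayed at 0 for genotype, interaction and the other sex comparisons. Shares of all genes are not given for these fits, and their counts were not read as results about the members. The replicate block gave 2, 2, 4 and 3 members for diet in WT and Cyp2b-null females and WT and Cyp2b-null males. The shares of all genes called there were 23.4%, 30.1%, 32.5% and 36.6% in the same order. Cry2 in WT males (adjusted p = 0.0382) and Per1 in Cyp2b-null males (0.0498) gained a call with the block, and Nr1d1 in Cyp2b-null males lost its own (0.0573). Whether replicate numbers pair libraries is not known, and these changes were not read as weaker or stronger effects. Within 16 libraries of a sex, the Arntl correlations that no longer passed by permutation were r = −0.38 with Per3 (adjusted p = 0.267) and −0.57 with Dbp (0.0626) in females, and 0.65 with Clock (0.114), 0.35 with Npas2 (0.318) and −0.61 with Per2 (0.0532) in males; with Nr1d1 r turned to −0.047 in males (0.856). Apart from the filter, library size and fewer libraries, causes were not tested. Low counts of Arntl, Npas2, Cry1 and Per3 limit their precision.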
